A study of Mus musculus with 6 samples.

Results

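The genes described here are 10 regulators of extracellular matrix breakdown in mouse liver: the inhibitors Timp1, Timp2 and Timp3, the secreted proteases Adamts1, Adamts4 and Adamts9, and the matrix metalloproteinases Mmp2, Mmp14, Mmp15 and Mmp19. They were taken by symbol from the 22488 rows of each count file, where every one of the 10 has a row of its own, and all 10 passed the filter on low counts. Whole livers of male wild-type C57BL/6 mice aged 6 to 8 weeks were sequenced in 6 libraries. Both groups went through a 16 h fast. The 3 control libraries come from animals given 200 µl of the salt buffer HBSS into the peritoneal cavity, although another label of these samples reads as untreated. The 3 LPS libraries come from animals given lipopolysaccharide (6 mg/kg), a component of the outer membrane of Gram-negative bacteria, by the same route. The interval between injection and collection of the liver is not given in the sources used here.

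Matrix metalloproteinases (MMPs) and ADAMTS proteases are zinc enzymes that are made as inactive precursors and cut collagens, laminins, proteoglycans and other matrix proteins once activated. Tissue inhibitors of metalloproteinases (TIMPs) bind the active site of many of these enzymes and block it, but a given TIMP does not block all of them equally. In liver, most of these genes are known from stellate, endothelial and immune cells, and TIMP1 is a long-standing marker of liver injury and fibrosis. RNA levels measure neither the amount of protein nor its activation.

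Library totals ran from 11488525 to 20282004 counts. Of the counts between 1 and 10 in a library, 90.2% to 92.2% were even numbers. The cause of this was not tested, and counting intervals are therefore also given with counts halved. They cover counting error only. Spearman correlations over tested genes were 0.982 to 0.989 between libraries of the same group and 0.835 to 0.844 between groups. Hepatocyte markers dominated all 6 libraries, with Alb, the plasma albumin gene, at 79341 ± 8493 CPM in controls, where CPM stands for counts relative to the TMM-scaled total of the library and 54469 ± 10899 in LPS livers (SD, n = 3). Titles number the libraries as repeat experiments and no label ties them to separate mice. The p values therefore set the group difference against the spread within each group of these 6 samples, which may not be the spread between mice. In whole tissue, fewer cells of a type and less RNA per cell cannot be told apart.

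Of the 10 genes, 6 rose and 3 fell in LPS livers, and 1, Timp2, did not pass the test (edgeR, adjusted p below 0.05 over all 12078 genes tested). The background was high: 62.3% of all tested genes passed the same threshold, 31.3% as higher and 31.0% as lower. Control and LPS values did not overlap in 9 of the 10 genes, against 67.4% of all tested genes. Among these genes, Timp1 and Adamts4 passed the filter on low counts only through the LPS livers, and Mmp2 only through controls. The median log2 fold change was 1.06 for the 10 genes and 0.01 for all tested genes. Changes ran from 7.42 for Timp1 to -4.06 for Mmp15 on the log2 scale; MMPs moved in both directions.

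**Figure D1:**
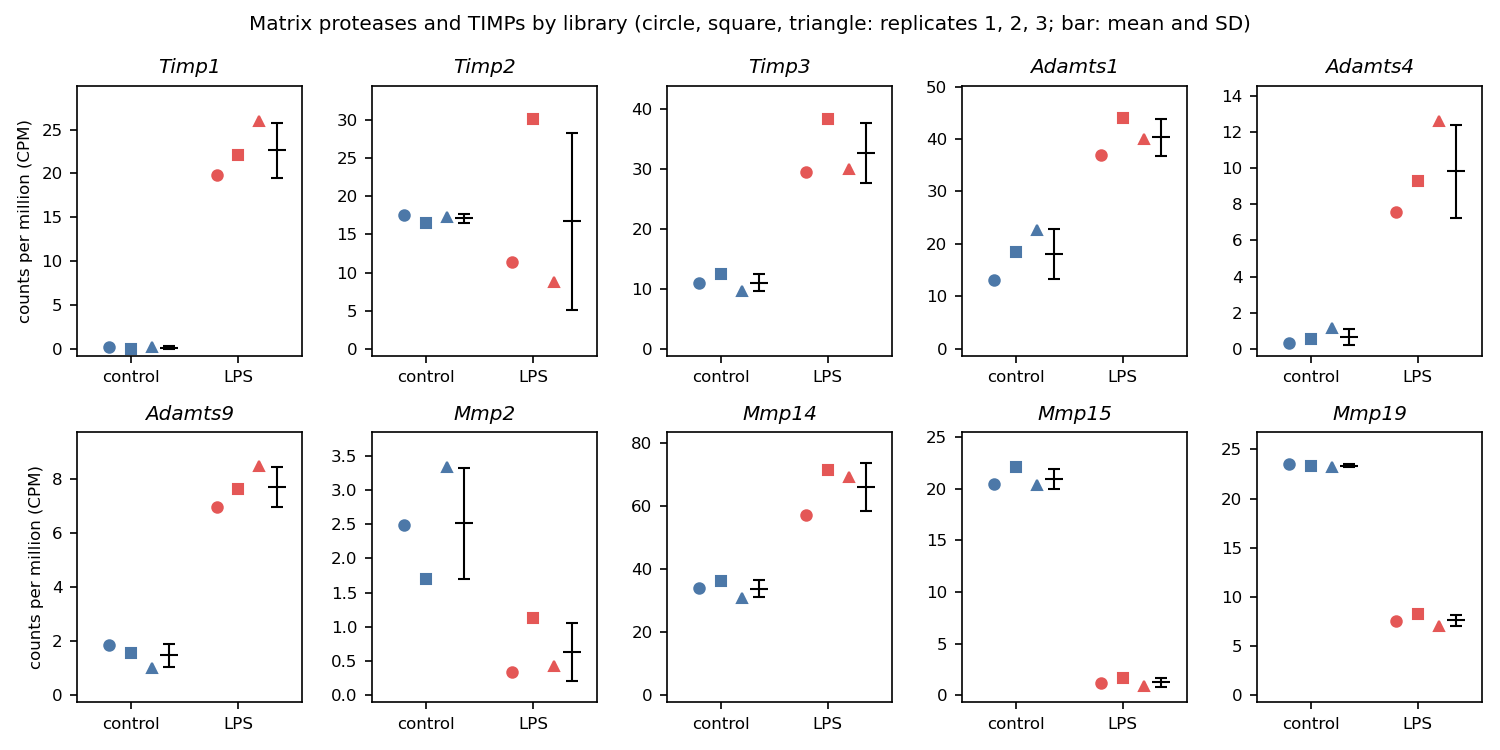
CPM (linear vertical axis) of the 10 genes in each of the 3 control (blue) and 3 LPS (red) livers, with the group mean and SD in black. The groups are apart in 9 panels, while in the Timp2 panel LPS replicate 2 lies above all controls and the other LPS livers below them.

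The promoters of 3 genes are shown, those of the largest rise (Timp1), of the largest fall (Mmp15) and of Adamts9, which holds the only motif match found. The RefSeq promoter table (GRCm38.p6) held windows for 7 of the 10 genes, each with 250 bases before and 50 after the annotated start. They were searched on both strands for the AP-1 site TGANTCA, the STAT site TTCNNNGAA and the NF-kB 10-mer, which are bound by factors of the inflammatory response. AP-1 and STAT matches were found in 0 of the 7 windows, and occur in 7.81% and 8.30% of all 32851 windows. The NF-kB 10-mer was found in 1 of 7, and occurs in 8.46% of all windows. That match lies 15 to 6 bases before the start of Adamts9, reads as a match on both strands, and is printed in capitals. Absence of a match says only that these letters are not in the window. The stretches below run 5′ to 3′ on the gene's strand and end before the first start in either the RefSeq or the GENCODE annotation (Timp1 at chrX:20869916-20870165, plus strand; Adamts9 at chr6:92943535-92943784, minus strand; Mmp15 at chr8:95352046-95352267, plus strand).
Timp1: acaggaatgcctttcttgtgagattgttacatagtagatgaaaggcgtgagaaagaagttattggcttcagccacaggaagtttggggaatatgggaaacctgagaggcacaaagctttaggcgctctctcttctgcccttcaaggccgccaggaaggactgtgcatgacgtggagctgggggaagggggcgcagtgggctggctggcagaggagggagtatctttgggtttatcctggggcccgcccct
Adamts9: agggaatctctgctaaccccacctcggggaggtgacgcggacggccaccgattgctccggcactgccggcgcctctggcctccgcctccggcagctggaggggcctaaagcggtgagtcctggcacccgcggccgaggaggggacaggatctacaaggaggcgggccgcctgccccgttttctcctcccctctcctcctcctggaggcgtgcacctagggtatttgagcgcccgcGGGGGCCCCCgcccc
Mmp15: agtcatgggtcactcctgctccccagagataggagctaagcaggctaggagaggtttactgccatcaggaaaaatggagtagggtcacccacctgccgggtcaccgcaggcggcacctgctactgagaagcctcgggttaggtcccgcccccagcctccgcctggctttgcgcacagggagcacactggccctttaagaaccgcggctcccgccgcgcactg

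The inhibitors behaved differently from each other. Timp1 (chromosome X, 20870166 to 20874735, plus strand, 6 exons), the soluble inhibitor induced by cytokines in many tissues, was nearly silent in controls, with 2, 0 and 4 counts (0.156, 0 and 0.257 CPM in replicates 1 to 3). The LPS livers had 232, 315 and 364 counts (19.8, 22.1 and 25.9 CPM). Every LPS liver was thus far above every control. The log2 fold change was 7.42 (SE 0.41, adjusted p = 3.28e-09), the 42nd largest rise among tested genes. The control side rests on 6 counts in all, and the ratio of summed counts was 186 with a 95% counting interval of 85.1 to 508, or 63.3 to 906 with counts halved. Without control replicate 2, which had no count, the log2 fold change was 6.66, and without control replicate 3 it was 8.34. Timp1 lies inside an intron of Syn1, a neuronal gene on the opposite strand with 2 to 10 counts per library, and shares no exon bases with it.

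Timp3 (chromosome 10, 86300372 to 86349506, plus strand) encodes the inhibitor that stays bound to the matrix and also restrains ADAM and ADAMTS enzymes. Its level was 10.99, 12.4 and 9.56 CPM in controls and 29.5, 38.4 and 29.9 CPM in LPS livers. All LPS values lay above all control values, and the fitted log2 difference was 1.57 (SE 0.16, edgeR adjusted p = 1.84e-06). Syn3, on the opposite strand, shares 21.3% of the exon bases of Timp3 but had only 2 to 16 counts in a library, against at least 141 for Timp3. Whether counting used the strand is not given in the sources used here.

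Timp2 (chromosome 11, 118301069 to 118355740, minus strand), an inhibitor expressed constitutively in many tissues that also takes part in the activation of pro-MMP2 by MMP14, stood at 17.5, 16.5 and 17.3 CPM in controls. The LPS livers had 11.3, 30.1 and 8.77 CPM. LPS replicate 2 was above all controls and the other 2 LPS livers below them, so the groups overlapped. The log2 fold change was -0.02 (SE 0.33, 95% interval -0.74 to 0.69, adjusted p = 0.955). Without LPS replicate 2 the gene was called lower, at -0.76 (edgeR, adjusted p = 0.00493). The same library was high among LPS livers in markers of sinusoidal endothelium, the lining of liver capillaries. The summed level of 12 such markers was 287, 473 and 328 CPM in LPS replicates 1 to 3, against 445 to 486 in controls. Ptprb, an endothelial phosphatase receptor, had 27.9, 74.1 and 27.2 CPM in the LPS livers. Not every marker of the list showed this, as Gpr182 had 5.46, 6.12 and 6.70 CPM. Nor was it limited to endothelium, as the stellate cell marker Reln had 30.4, 80.4 and 28.5 CPM. Whether these differences have a part in the Timp2 values was not tested.

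**Figure D2:**
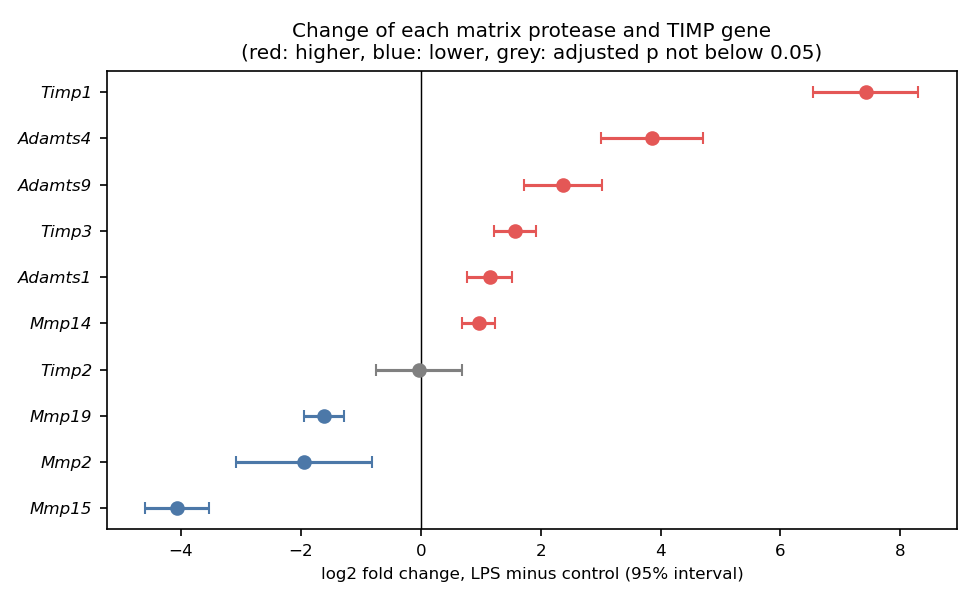
Fitted log2 fold change (LPS minus control) of each gene as a point with its 95% interval, ordered by size. Intervals of the 6 higher (red) and 3 lower (blue) genes exclude 0, that of Timp2 (grey) runs from -0.74 to 0.69, and the widest below 0 is that of Mmp2, from -3.09 to -0.81.

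All 3 ADAMTS members rose. ADAMTS proteases are secreted enzymes with thrombospondin repeats, and Adamts1, Adamts4 and Adamts9 encode cutters of the large proteoglycans versican and aggrecan. Adamts4 (chromosome 1, 171250421 to 171260637, plus strand) had few counts in controls, namely 4, 11 and 18, and 89, 132 and 177 in LPS livers. That is 0.312, 0.535 and 1.15 CPM against 7.59, 9.28 and 12.6 CPM. The lowest LPS value was above the highest control value, and the log2 fold change was 3.85 (SE 0.40, adjusted p = 1.59e-06).

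Adamts9 (chromosome 6, 92772699 to 92943492, minus strand, 30 exons in its longest RefSeq-matched transcript) had 1.87, 1.56 and 1.03 CPM in controls and 6.99, 7.66 and 8.48 CPM in LPS livers. The LPS livers differed little among themselves and all exceeded the controls (log2 fold change 2.38, SE 0.30, adjusted p = 1.28e-05). Adamts1 (chromosome 16, 85793827 to 85803113, minus strand) was the most abundant of the 3. It had 13.2, 18.4 and 22.6 CPM in controls and 36.9, 44.0 and 40.0 CPM in LPS livers. Controls were more spread than LPS livers, and the groups did not overlap (log2 fold change 1.15, SE 0.17, adjusted p = 5.97e-05).

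Of the 4 MMPs, 1 rose and 3 fell. Mmp14 (chromosome 14, 54431612 to 54445364, plus strand) encodes a membrane-anchored collagenase that activates pro-MMP2 at the cell surface. It had 34.2, 36.3 and 31.0 CPM in controls and 57.3, 71.6 and 69.1 CPM in LPS livers. A difference in this direction, 1.95-fold by the fit, held in each LPS liver against each control (log2 fold change 0.96, SE 0.13, adjusted p = 2.23e-05).

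Mmp15 (chromosome 8, 95352268 to 95375080, plus strand), the other membrane-type member and a close relative of Mmp14, moved the opposite way. Controls had 263, 454 and 317 counts and LPS livers 14, 24 and 12, or 20.5, 22.1 and 20.3 CPM against 1.19, 1.69 and 0.855 CPM. Controls were tightly grouped and all LPS livers were low, with a 16.7-fold lower level by the fit (log2 fold change -4.06, SE 0.25, adjusted p = 8.25e-09). This was the 104th largest fall among tested genes.

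Mmp19 (chromosome 10, 128790910 to 128800824, plus strand), a secreted protease that cuts basement membrane proteins, had 23.5, 23.4 and 23.2 CPM in controls and 7.59, 8.23 and 7.06 CPM in LPS livers. Both groups were narrow and far apart (log2 fold change -1.61, SE 0.16, adjusted p = 1.02e-06). Tmem198b, on the opposite strand, shares 22.3% of the exon bases of Mmp19. It had 24 to 39 counts in controls and 2 to 13 in LPS livers, against 301 to 480 and 89 to 117 for Mmp19.

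Mmp2 (chromosome 8, 92827291 to 92853420, plus strand), gelatinase A, which cuts denatured collagen and collagen IV, had few counts throughout. Controls had 32, 35 and 52 counts and LPS livers 4, 16 and 6, or 2.50, 1.70 and 3.33 CPM against 0.341, 1.13 and 0.428 CPM. The groups did not overlap, but LPS replicate 2 came closest to the controls. The log2 fold change was -1.95 (SE 0.53, adjusted p = 0.00567), and -2.66 without LPS replicate 2. Mmp2 had the largest standard error of the 10 genes.

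Levels of different genes were compared per kilobase of the longest GENCODE transcript matched to RefSeq, which ran from 883 bases for Timp1 to 6033 for Adamts9. In controls Mmp14 was highest at 13.03 ± 1.04 CPM per kilobase (SD, n = 3), followed by Mmp19 (6.86 ± 0.04), Timp2 (4.61 ± 0.15), Mmp15 (4.08 ± 0.19), Adamts1 (3.70 ± 0.97), Timp3 (2.33 ± 0.30) and Mmp2 (0.816 ± 0.265). Adamts9 (0.246 ± 0.071), Timp1 (0.156 ± 0.146) and Adamts4 (0.152 ± 0.0995) closed the order. Ranges of neighbours overlapped between Mmp15 and Adamts1 and among the last 3 genes.

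In LPS livers Timp1 (25.6 ± 3.52) and Mmp14 (25.4 ± 2.94) led on the same per-kilobase scale, with overlapping ranges. Adamts1 (8.25 ± 0.73), Timp3 (6.91 ± 1.06) and Timp2 (4.51 ± 3.14) followed, each overlapping the next. Mmp19 (2.24 ± 0.17) and Adamts4 (2.24 ± 0.58) were level, Adamts9 stood at 1.28 ± 0.12, and Mmp15 (0.243 ± 0.081) and Mmp2 (0.205 ± 0.140) came last. On this scale Timp1 was among the lowest of the 10 genes in controls and level with Mmp14 at the top in LPS livers, and Mmp15 went from the middle to the last 2. The place of Timp1 depends on its short transcript: in CPM not divided by length it stood at 22.6 in LPS livers, below Mmp14 (66.0), Adamts1 (40.3) and Timp3 (32.6).

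The summed TIMP level was 7.23, 7.07 and 6.97 CPM per kilobase in control replicates 1 to 3 and 31.7, 41.3 and 38.1 in LPS replicates 1 to 3. The summed level of the 7 proteases was 27.9, 29.9 and 28.9 in controls and 35.1, 43.1 and 41.5 in LPS livers. Both sums were higher in every LPS liver, the inhibitor sum by more. The ratio of TIMP to protease RNA was 0.246 ± 0.012 in controls and 0.927 ± 0.029 in LPS livers (SD, n = 3). It adds all members alike, whether or not a given TIMP blocks a given protease. An exact 2-sided permutation test of the log2 ratio gave p = 0.10, the smallest that 3 against 3 allows. The size of this difference depends on transcript length: it was 1.92 in log2 per kilobase and 0.93 in CPM not divided by length.

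The make-up of both families shifted. Timp1 made up 2.44%, 0% and 4.17% of the summed TIMP level per kilobase in controls and 70.7%, 60.7% and 77.1% in LPS livers. The difference of the means was 67.3 percentage points per kilobase and 31.9 in CPM not divided by length, where Timp3 and not Timp1 had the highest mean of the 3 in LPS livers. Timp2, the leading inhibitor in controls at 65.0 ± 1.98%, made up 11.8 ± 6.97% in LPS livers. The share of Timp3 was 32.8 ± 4.08% in controls and 18.7 ± 1.76% in LPS livers although its own level rose, and in CPM not divided by length its share was higher by 6.925 percentage points instead. Mmp14 made up 45.1 ± 3.26% of the protease level in controls and 63.7 ± 0.70% in LPS livers. Mmp19 made up 23.8% of it in controls and 5.66% in LPS livers, Mmp15 14.1% and 0.609%, and Adamts1 12.8% and 20.7% (means of 3). For the shares of Timp1, Timp3 and Mmp14 the groups did not overlap, with p = 0.10 in the exact permutation test, again the smallest possible.

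**Figure D3:**
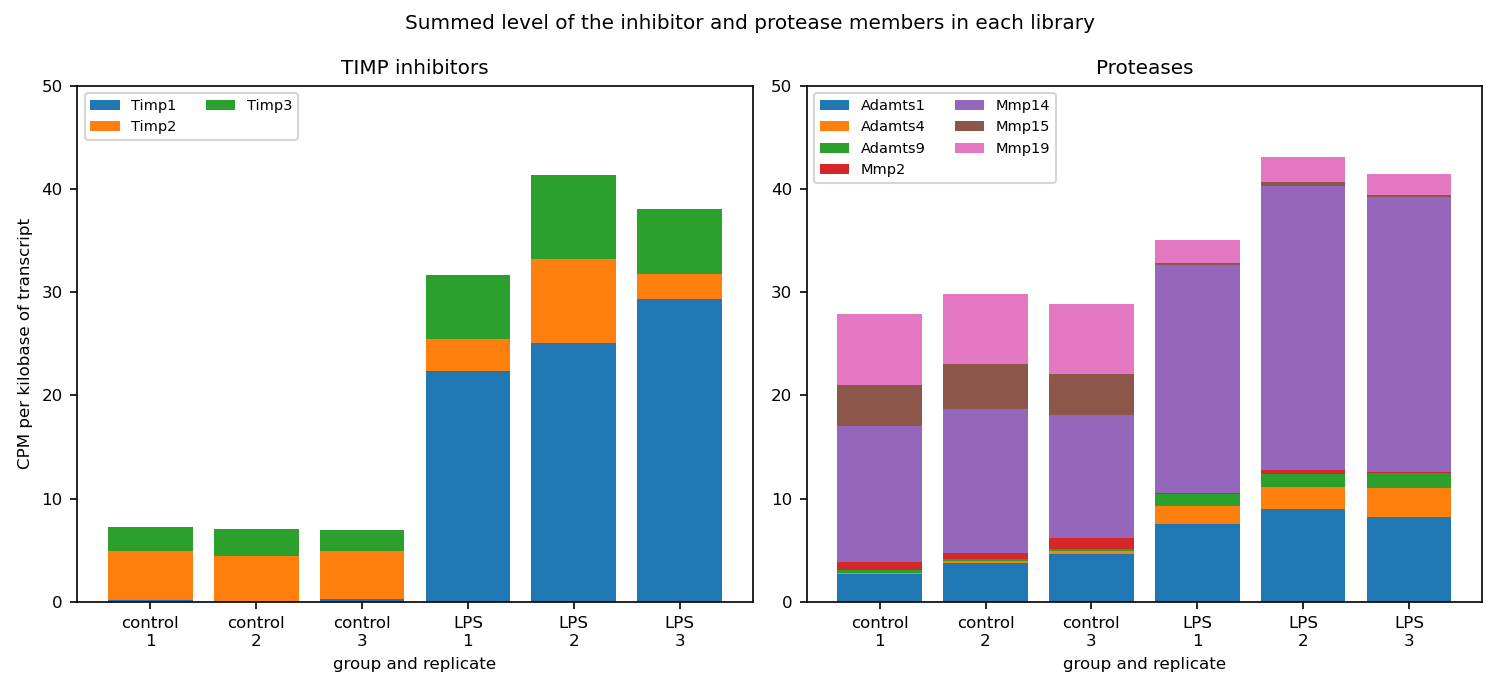
Stacked level (CPM per kilobase of transcript) of the 3 TIMPs (left) and the 7 proteases (right) in each library, on the same vertical scale from 0. The TIMP bars go from about 7.09 in controls to 37.0 in LPS livers on average, mostly through Timp1, while the protease bars go from 28.9 to 39.9, mostly through Mmp14.

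Other genes of the same families were counted in the same fit. Counts of risers and fallers in these and the following lists stand beside 62.3% of all tested genes that passed the same threshold. No list was tested as a set. Of 17 further MMPs, 7 were tested, 5 rose and 1 fell (median 3.13 on the log2 scale), while Mmp10, Mmp16, Mmp21 and Mmp24 had no count in any library. Mmp7, Mmp8, Mmp12 and Mmp13 passed the filter on low counts only through the LPS livers, and Mmp11 only through controls. The number of risers and the median therefore follow in part from the filter. The neutrophil collagenase Mmp8 had 2, 2 and 0 counts in controls and 77, 102 and 67 in LPS livers (log2 fold change 6.10, SE 0.56, adjusted p = 5.31e-07). The gelatinase Mmp9, stored in neutrophil granules, went from 0.847 ± 0.216 to 11.4 ± 0.946 CPM (3.77, SE 0.29, adjusted p = 8.41e-08), and the macrophage elastase Mmp12 from 0.212 ± 0.093 to 1.87 ± 1.07 CPM. The other risers, Mmp7 (1.40) and Mmp13 (3.87), and the faller, Mmp11 (-2.70), all had mean levels of at most 2.09 CPM in either group. Markers of neutrophils moved in the same direction: 11 of 11 tested rose, with a median of 5.87. Several of them had only a few counts in controls and passed the filter on low counts only through the LPS livers. The number of risers and the median thus follow in part from the filter. The summed level of all markers of the list was 13.6 to 20.9 CPM in controls and 10125 to 12494 CPM in LPS livers. Most of that sum was Lcn2, which hepatocytes also make, at 10797 ± 1291 CPM, and S100a9 reached 99.7 ± 10.2 CPM. Mmp8 and Mmp9 are themselves in that marker list, and Ly6g had 0 to 4 counts in controls and 8 to 26 in LPS livers. The part of these cells in the MMP values was not tested.

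Of 16 further ADAMTS genes 8 were tested, 1 rose and 3 fell, with a median of -0.62, beside 62.3% of all tested genes called. The riser was Adamts15, a versican-cutting relative of Adamts1, from 1.37 ± 0.11 to 19.4 ± 5.54 CPM (log2 fold change 3.81, SE 0.26, adjusted p = 3.14e-08). Adamts7 (-1.56), Adamts10 (-1.26) and Adamts13 (-1.33), the last being the protease of von Willebrand factor, fell. Among 10 membrane-bound ADAM genes 7 were tested, 3 rose and 1 fell, with a median of 0.53. Adam9 went from 56.9 ± 3.28 to 106 ± 34.7 CPM (0.89, SE 0.19) and Adam17, the sheddase of TNF, from 15.6 ± 2.04 to 22.6 ± 2.45 CPM (0.53, SE 0.16, adjusted p = 0.0097). Adam8 rose by 1.58 and Adam23 fell. Adam8 passed the filter on low counts only through the LPS livers. The calls of Adam8 and Adam17 ended without control replicate 3, with adjusted p = 0.0642 and 0.0558 (edgeR).

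Other inhibitors and receptors of metalloproteases held 6 tested genes of 9, of which 1 rose and 3 fell, with a median of -0.54. The riser, A2m, the plasma protease trap alpha-2-macroglobulin, stood at 0.127 ± 0.029 CPM in controls and 279 ± 145 CPM in LPS livers (11.06 in log2, SE 0.54). It had 2 counts in each control and passed the filter on low counts only through the LPS livers. Bsg, the inducer of MMPs called basigin, fell (-0.79), as did Papln and Tfpi2, an inhibitor of plasmin and other serine proteases (-1.30). Papln passed the filter only through controls. The numbers of risers and fallers and the median of this list thus follow in part from the filter. Lrp1, the uptake receptor for protease-inhibitor complexes, stood at 412 ± 27.1 and 337 ± 42.0 CPM (-0.29, SE 0.13, adjusted p = 0.0691) and passed the threshold under 5 of 12 other settings, among them DESeq2 (adjusted p = 0.0437). Timp4 was not tested for lack of counts. In the plasminogen system, which activates MMPs, 8 of 10 genes were tested, 3 rose and 1 fell, with a median of 0.09. Plaur, the urokinase receptor, had a log2 fold change of 5.07, Serpinf2, the plasmin inhibitor, 0.72, and Klkb1, plasma prekallikrein, -3.61. Plaur passed the filter on low counts only through the LPS livers.

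Matrix proteins that these enzymes cut went both ways. Of 28 tested, 7 rose and 12 fell, with a median of -0.41, beside 62.3% of all tested genes called. Col4a1, a chain of the basement membrane collagen IV, rose from 36.7 ± 3.56 to 210 ± 19.9 CPM (log2 fold change 2.52, SE 0.13, adjusted p = 2.34e-09) and so did Nid1, nidogen, of the same membrane (1.93), while Lamb1, a laminin chain, fell (-1.28). Vcan, versican, the shared substrate of the ADAMTS members, went from 0.170 ± 0.081 to 5.62 ± 0.615 CPM (5.02, SE 0.46). It passed the filter on low counts only through the LPS livers. Fn1, fibronectin, mostly made by hepatocytes, rose from 1018 ± 65.6 to 2086 ± 676 CPM (1.03, SE 0.19). Of other collagens, named after their values were seen, Col1a1 (-1.54), Col1a2 (-1.19), Col5a1 (-2.66) and Col6a1 (-2.21) fell while Col3a1 (0.69) rose. Among these, Col1a1, Col5a1 and Col6a1 passed the filter on low counts only through controls, as did some other fallers of the list. The numbers of risers and fallers and the median of these matrix proteins thus follow in part from the filter. Of 10 genes of collagen hydroxylation and cross-linking 2 rose and 2 fell, with a median of 0.22. Lox, lysyl oxidase, rose from 0.439 ± 0.184 to 2.42 ± 0.471 CPM (2.46), and Plod1 (-1.34) and P4ha1 (-1.03) fell. Lox passed the filter on low counts only through the LPS livers.

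**Figure D4:**
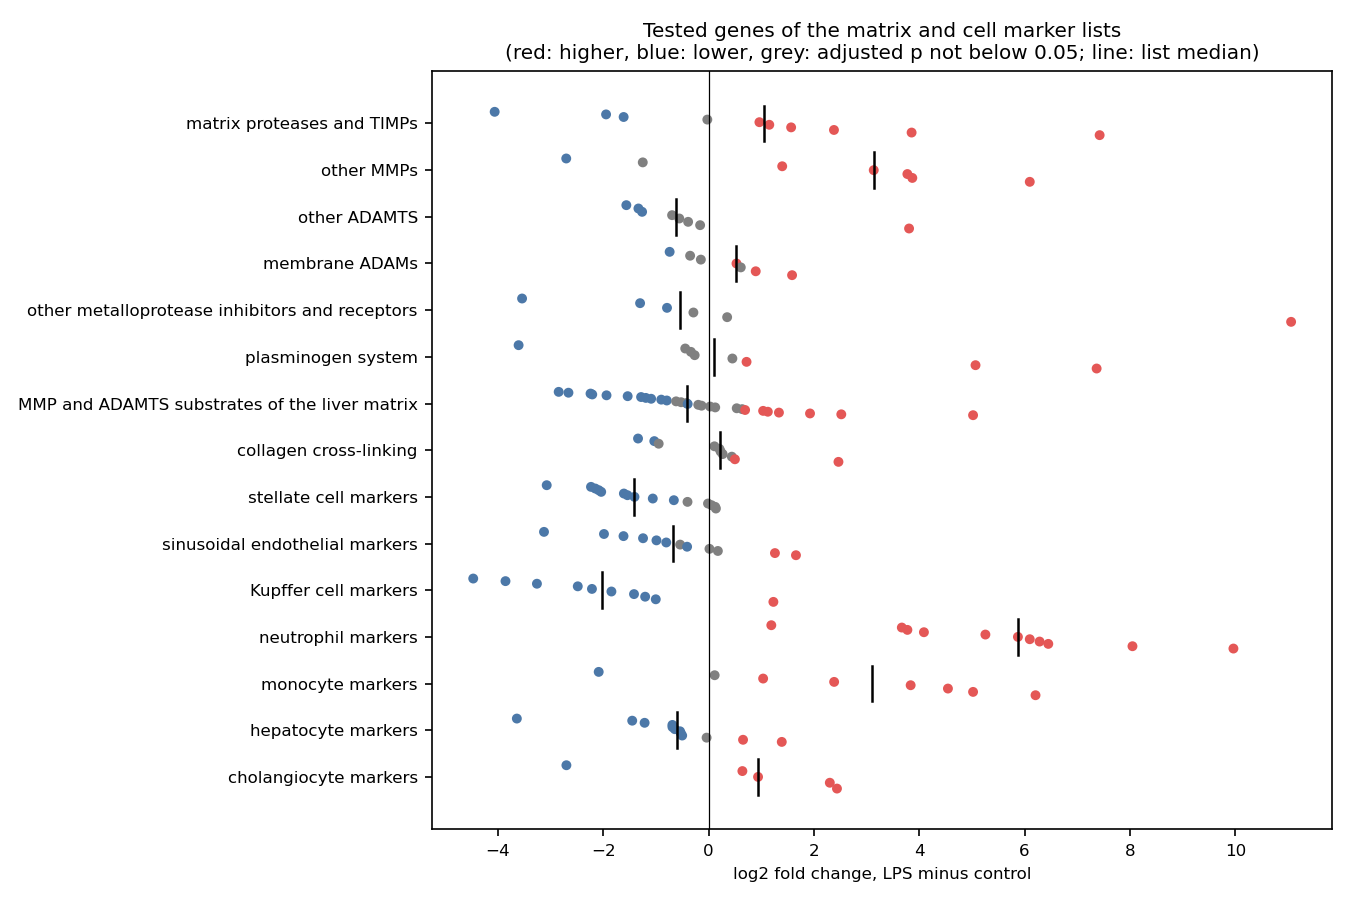
Log2 fold change (LPS minus control) of every tested gene of the 10 described genes, the related matrix lists and the cell marker lists, each point a gene and each black line the median of its list. Neutrophil markers lie to the right (median 5.87), stellate and Kupffer cell markers mostly to the left (medians -1.41 and -2.03).

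Markers of the cells that are known to express these genes also moved, as did 62.3% of all tested genes. Of 15 stellate cell markers 0 rose and 10 fell (median -1.41), and their summed level was 374 to 403 CPM in controls and 310 to 342 in LPS livers. The most abundant, Dcn, stood at 155 ± 3.94 and 169 ± 13.2 CPM, and Ecm1 fell (-0.66). Of 12 sinusoidal endothelial markers 2 rose and 7 fell (median -0.67), with Ptprb at -0.99, or -1.63 without LPS replicate 2 (its call ended under DESeq2, adjusted p = 0.0605), and Stab1 at 0.02 (adjusted p = 0.931). Of 10 tested Kupffer cell markers 1 rose and 9 fell (median -2.03), and their sum was 325 to 374 CPM in controls and 82.6 to 133 in LPS livers, with Clec4f at -2.48 and Cd5l at -3.26. Some of the stellate and Kupffer cell fallers passed the filter on low counts only through controls. The numbers of fallers and the medians of these lists thus follow in part from the filter. Of 8 tested monocyte markers 6 rose and 1, Lyz2 (-2.09), fell (median 3.11). Some of these risers passed the filter on low counts only through the LPS livers. Ccr2, the tested monocyte marker that was not called, stood at 0.11 (edgeR, adjusted p = 0.881). The sum was 1016 to 1141 CPM in controls and 1582 to 2912 in LPS livers. Most of it was Fn1, which is mostly made by hepatocytes, so the sum is not a measure of monocytes.

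Of 12 hepatocyte markers 2 rose and 9 fell (median -0.59), with sums of 123420 to 136660 and 77187 to 104210 CPM. The call of Alb (-0.54) ended without control replicate 2 (edgeR, adjusted p = 0.0503) and without LPS replicate 2 (0.0724). Apoa1, the other hepatocyte marker named, stood at -0.04 (adjusted p = 0.831). Of 5 tested cholangiocyte markers 4 rose and 1 fell (median 0.94), with Spp1, osteopontin, at 2.44, and sums of 34.2 to 44.3 and 136 to 155 CPM. Most of the sum in LPS livers was Spp1, at 95.5 ± 7.61 CPM. The faller was Krt19 (-2.70), from 1.95 ± 0.98 to 0.292 ± 0.235 CPM, which passed the filter on low counts only through controls. No marker of these lists was at 0 in all 6 libraries. The part of cell numbers in the changes of the 10 genes was not tested.

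The genes whose log2 CPM was most like that of Timp1 over the 6 libraries, by Pearson r as a description, were Crybb3, Efna1 and Nub1 (r = 0.9994, 0.9993 and 0.9992). Efna1, a membrane ligand of Eph receptors, had 27.1, 17.4 and 28.2 CPM in controls and 144, 152 and 162 in LPS livers. With only 2 groups such likeness is common, and 1255 of the 7431 genes compared had r above 0.95.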

How the data were processed

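Whole-liver RNA was sequenced in 3 control and 3 LPS libraries, grouped by their titles. The authors deposited raw counts per gene, 1 table per library. Per the submitters' processing notes the tools were bcl2fastq 2.0, HISAT2, StringTie, DESeq2 and limma and the build mm10. Their roles, the counter, the annotation, the strand setting and the handling of multi-mapped reads are not given in the sources used here. Rows were named by Entrez identifier where the symbol agreed (20305) and otherwise by the deposited symbol (2183). Positions and lengths come from GENCODE M21 (GRCm38).

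All genes were fitted in R 4.3.3 with edgeR 4.0.16: TMM scaling, filterByExpr (minimum count 10, total 15, 3 samples), quasi-likelihood F test, 2-sided, Benjamini-Hochberg adjustment over 12078 genes, threshold 0.05. A gene could pass the filter through either group alone. SE is the log2 fold change over the root of F. The method was tested on simulated data. Members and gene lists were chosen with earlier results of these data known. Named were all members, the 3 genes of each related list with the smallest adjusted p and its most abundant gene, 2 genes per marker list by level, and the 3 genes most like the member with the largest change. Mmp7, Mmp10, Mmp11, Mmp13, Mmp16, Mmp21, Mmp24, Timp4, Ly6g, Ccr2, Reln, Gpr182, Krt19, Adamts13, the Syn genes, Tmem198b, Adam23, Papln, Lamb1 and 5 collagens were named outside that rule. Alternatives were RLE scaling, library totals, DESeq2 1.42.0, no filter, a replicate block, each library left out, CPM not divided by length and, chosen after seeing the data, counts halved and the length of all exons together. Protein sequences were not used here, and some genes that the rule names, and an overlap of a member with another gene, are not reported here.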

Additional observations from a re-analysis of the deposited data

How the results depend on the processing

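The 6 rises and 3 falls kept their direction and stayed past the threshold under all 12 alternatives, with log2 fold changes from 6.66 to 8.34 for Timp1, -4.36 to -3.83 for Mmp15 and -2.66 to -1.69 for Mmp2. Timp2 alone changed: with a library left out it ran from -0.76 to 0.30, called lower without LPS replicate 2, which made 4 lower members, and positive without LPS replicate 1 (0.18) or 3. The cause was not tested. With the replicate block 6 members were higher and 3 lower, and 7546 genes were called instead of 7528. After group means were removed, control and LPS libraries sharing a number had r of -7.45e-04, 0.104 and 0.0352. Those of different numbers had r from -0.121 to 0.0741. Control replicates 2 and 3 were most like the LPS library of their own number, and control replicate 1 was most like LPS replicate 3. All these values were small, and the numbers were not taken as pairs. Without division by length the difference in share was 31.9 percentage points for Timp1 (67.3 per kilobase), 6.925 for Timp3 (-14.1, a reversal) and 15.9 for Mmp14 (18.6), and the log2 ratio of TIMP to protease was 0.930 (1.92). Per kilobase of all exons together that ratio was 2.30. These moves follow from the lengths. Among other named genes, calls ended for Ptprb under DESeq2 (-0.997), for Alb without control replicate 2 (-0.49) or LPS replicate 2 (-0.52) and for Adam8 (1.17) and Adam17 (0.42) without control replicate 3, and Lrp1 was called under 5 alternatives (-0.38 to -0.29). Stab1 was near 0 and changed sign by library totals (-0.055), without a filter (-0.019) and with a library left out (-0.11 to 0.14), and Apoa1 ran from -0.11 to 7.49e-04. The smallest exact p of 0.10 limits all tests of shares and ratios, and controls with few counts limit Timp1 and Adamts4.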
